A study of Mus musculus with 26 samples.

Results

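Genes of the two-cell-like state were examined in mouse embryonic stem cells (mESCs) that carried much more Prdm14 RNA than wild-type (wt) cells in serum. The members were 8 of the 24015 genes in the deposited tables, namely Gm8994, Gm4971, Usp17lc, Tmem92, Sp110, Dux, Tcstv1 and Tcstv3. The set was built on high measured values in the cells rescued with FH-Prdm14, although Tcstv1 and Tcstv3 had no reads there. Every value that sets these cells against the others is therefore a description and has no test. Of the 8 members, 6 passed the filter on low values (2 or more libraries at 1 RPKM or above, where RPKM is reads per kilobase of gene length, corrected for library depth), and Tcstv1 and Tcstv3 were listed at 0 in every library. The 6 also reached that level in at least 2 of the 13 libraries of the other conditions, so none passed only through the FH-Prdm14 cells.

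All lines came from mESCs with a Stella:GFP reporter. The 15 libraries fall into 7 conditions, namely wt cells kept in 2i+LIF (2 libraries), wt cells moved to serum+LIF for 5 days (1 library), and 5 kinds of edited or rescued line, also after 5 days in serum+LIF without feeders. Prdm14-/- lines were the CRISPR/Cas9 clones G6 and F10, and the FH-Prdm14 and E294K lines were these same clones given FLAG-HA tagged Prdm14 cDNA, either wild-type or with E294K, an exchange in the SET domain made to break the contact with the corepressor Mtgr1 (gene symbol Cbfa2t2). Mtgr1-/- lines were the clones A3, C1 and C3, and FH-Mtgr1 lines were these clones given tagged Mtgr1 cDNA. Each clone is a single clonal line with 1 library in each of its conditions, so the spread between libraries of a condition is a spread between clones.

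In the mouse embryo the two-cell stage is when the zygotic genome is first strongly transcribed. A few cells in an mESC culture pass in and out of a state that shares part of this programme. The homeodomain factor Dux is a known activator of it, Zscan4 genes are its usual markers, and many of its genes start transcription from promoters that share sequence with endogenous retroviral elements. Among the members, Dux encodes that factor, Sp110 encodes a nuclear body protein of the speckled protein family, Usp17lc encodes a deubiquitinating enzyme, and Tcstv1 and Tcstv3 are named for variable expression at the two-cell stage. Gm8994, which RefSeq lists as Eif4a3l1, is related by that name to the helicase Eif4a3, and Gm4971 is annotated as a pseudogene.

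The promoters are shown first because 2 members share long runs of sequence upstream of a start. RefSeq promoter entries (build GRCm38.p6) were found for 3 of the 8 members, and the others are named only. Sp110 has 2 entries, of which only the first is shown and aligned. The lines below give the 250 bases before the gene start, 5′ to 3′ on the gene's strand. Capitals mark runs of at least 12 bases that align between Gm8994 and Sp110 in the same order. Further copies of such runs in Sp110 are left in lower case.
Gm8994, chr6:136327289-136327538, plus strand: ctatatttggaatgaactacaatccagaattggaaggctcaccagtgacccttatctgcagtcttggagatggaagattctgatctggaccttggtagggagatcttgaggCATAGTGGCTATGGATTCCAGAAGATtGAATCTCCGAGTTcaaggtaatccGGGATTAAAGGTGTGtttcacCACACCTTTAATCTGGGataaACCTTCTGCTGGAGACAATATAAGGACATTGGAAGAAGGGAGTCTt
Sp110, chr1:85603892-85604141, minus strand: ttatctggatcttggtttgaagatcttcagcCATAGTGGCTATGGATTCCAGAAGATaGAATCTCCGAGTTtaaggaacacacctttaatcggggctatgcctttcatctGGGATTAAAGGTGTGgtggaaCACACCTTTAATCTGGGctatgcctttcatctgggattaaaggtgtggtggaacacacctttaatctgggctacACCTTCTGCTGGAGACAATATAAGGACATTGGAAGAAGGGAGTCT
In the third promoter the capitals mark TATAAA.
Usp17lc, chr7:103416446-103416695, plus strand: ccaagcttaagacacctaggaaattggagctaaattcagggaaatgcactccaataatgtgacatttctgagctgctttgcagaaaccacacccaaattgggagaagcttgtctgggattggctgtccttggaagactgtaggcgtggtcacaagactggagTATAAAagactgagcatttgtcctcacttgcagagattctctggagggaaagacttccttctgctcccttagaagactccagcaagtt

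The Gm8994 promoter and the Sp110 promoter shown had 5 such aligned runs, 116 bases in all, of 45, 26, 17, 15 and 13 bases. Sp110 also repeats the runs of 17 and 15 bases, and these repeats are not counted. The longest run began 46 bases before the Gm8994 start and 45 bases before this Sp110 start, and it holds the letters TATAAG. The window of the other Sp110 entry holds no TATAAG, so it lacks this run. The run was chosen after the sequences were seen. Of the 32851 promoters in the RefSeq table, 19 hold the 45-base run on either strand (0.0578%), and they belong to 18 genes. These windows run from 250 bases before to 50 bases after the start, 300 bases in all. Of these genes, 12 are in the expression tables, of which 6 are listed at 0 in all 15 libraries. Besides Gm8994 and Sp110, the remaining 4 are Arih2, D17Ertd648e, B020004J07Rik and Sgk1. D17Ertd648e was at 198 RPKM (G6) and 128 RPKM (F10) in the FH-Prdm14 lines and at 9.45 and 9.16 RPKM in the E294K lines. B020004J07Rik, itself on a list of two-cell-stage genes, was at 3.47 and 2.03 RPKM against 0.255 and 0.154 RPKM. Arih2, which encodes a ubiquitin ligase, was at 67.2 and 70.2 RPKM against 33.0 and 32.2 RPKM, and Sgk1, which encodes a kinase, was at 73.5 and 81.4 RPKM against 54.6 and 62.5 RPKM. In 1 of the wt 2i+LIF libraries Arih2 was at 84.7 RPKM and Sgk1 at 74.4 RPKM. Both FH-Prdm14 libraries were thus above the 13 others for D17Ertd648e and B020004J07Rik but not for Arih2 and Sgk1. The same held for 8.26% of the 13477 genes tested. B020004J07Rik was at no more than 0.417 RPKM in the 13 others, so it passed the filter only through the FH-Prdm14 libraries. The RPKM are per gene, and from which start the RNA came was not examined. Whether the run has a part in these values was not tested.

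Motifs were read on both strands of the same windows. TATAAA was in the Usp17lc window, 88 bases before its start, and in 13.6% of all promoters. TATAAG was in the Gm8994 window and in 1 of the 2 Sp110 windows, and in 7.43% of all promoters. Neither GGTCTCTAA, letters of the known Prdm14 motif (0.256% of promoters), nor TGATTNNATCA, letters of a Dux-type motif (0.207%), occurred in the windows of these 3 members. These motifs do not overlap one another in the windows shown.

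The 6 measured members lie on 5 chromosomes. In NCBIM37, the assembly also called mm9, Gm8994 is at chr6:136278539-136280001, Gm4971 at chr7:80830418-80831467, Usp17lc (annotated there as Usp17l5) at chr7:110563586-110568394, Tmem92 (annotated as Tmem92-ps) at chr11:94638531-94644017, Sp110 at chr1:87473474-87495392 and Dux at chr10:57685047-57688454. All 6 share exon sequence with other places in that assembly. Of the 51-base windows of their exons, 22.0% (Tmem92), 37.4% (Gm4971), 47.5% (Usp17lc), 52.2% (Gm8994), 61.0% (Dux) and 66.2% (Sp110) occurred at more than 1 place. For 76-base windows the range was 12.9% (Tmem92) to 52.7% (Sp110). These positions and exons are those of GENCODE models, while the RPKM were counted on RefSeq genes. Only for Usp17lc did a model transcript have the gene length deposited with the RPKM. For Dux, for example, the model has 2704 exon bases against a deposited length of 2025. The shares may therefore differ for the genes as counted. The reads were 51 or 76 bases long and how reads with several matches were counted was not given in the sources used here, so the values of these genes are uncertain where a near-identical copy could take or lend reads. The windows concern the share of sequence that is not unique and do not show how many reads were affected.

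The depth was 10668572 to 21218414 reads on genes per library (median 13793727). Pluripotency genes such as Dppa5a, Pou5f1 and Utf1 were strongly expressed in every library, with a sum of 1891 to 5563 RPKM over 10 genes. Markers of other cell types were low: the sums were 25.1 to 79.9 RPKM for 9 primitive endoderm genes (led by Col4a1, Lama1 and Dab2), 20.4 to 99.5 RPKM for 8 trophoblast genes (led by Tfap2c, Hand1 and Ascl2) and 3.98 to 30.2 RPKM for 8 fibroblast genes (led by Thy1, Col1a1 and Pdgfrb), which would mark feeders. The FH-Prdm14 libraries did not have the highest sum of any of these 4 lists. Some libraries stood apart from the others of their condition in the reads over all genes: the pair of wt 2i+LIF libraries (chi-square per gene 64.4), clone C3 in Mtgr1-/- (39.9 and 43.9 against the other clones) and in FH-Mtgr1 (20.4 and 26.0), and the pair of Prdm14-/- libraries (22.8). The FH-Prdm14 pair had 5.12 and the E294K pair 3.26.

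Prdm14 RNA was at 116 RPKM (G6) and 79.8 RPKM (F10) in the FH-Prdm14 lines and at 105 and 89.9 RPKM in the E294K lines. The means were 98.1 ± 25.9 and 97.4 ± 10.7 RPKM (SD, n = 2 each), a log2 difference of -0.01 (SE 0.38). The pair of conditions therefore had Prdm14 RNA within the spread of the lines, and the order of the clones was the same in both. Prdm14 was at 19.1 and 30.8 RPKM in wt 2i+LIF cells and between 1.43 and 3.88 RPKM in the other 9 libraries. The Prdm14-/- lines were among these at 1.96 and 3.60 RPKM, against 2.77 RPKM in wt serum+LIF cells, so that the RNA level is no check of the knockout label.

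Gm8994 was the member with the highest level. It was at 237 RPKM (G6) and 127 RPKM (F10) in FH-Prdm14 cells, at 10.3 and 8.12 RPKM in Prdm14-/- cells and at 4.95 and 3.52 RPKM in E294K cells. The other libraries gave 1.36 RPKM in wt serum+LIF, 4.77 and 1.69 RPKM in wt 2i+LIF, 9.68, 13.2 and 1.46 RPKM in Mtgr1-/- (A3, C1 and C3) and 3.09, 2.19 and 0.749 RPKM in FH-Mtgr1 (same order of clones). Both FH-Prdm14 libraries were far above the rest, the Prdm14-/- lines and Mtgr1-/- clones A3 and C1 came next, and the E294K lines lay below all 4 of those.

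Gm4971 was at 61.3 and 36.5 RPKM in FH-Prdm14 cells (G6 and F10), at 1.21 and 0.872 RPKM in Prdm14-/- cells and at 1.23 and 1.36 RPKM in E294K cells. It was at 0.764 RPKM in wt serum+LIF, 0.874 and 0.437 RPKM in wt 2i+LIF, 1.85, 2.68 and 0.494 RPKM in Mtgr1-/- (A3, C1, C3) and 1.22, 1.23 and 0.440 RPKM in FH-Mtgr1. Apart from the FH-Prdm14 lines, Mtgr1-/- clones A3 and C1 were above the rest, and clone C3 was low in both Mtgr1 conditions.

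Sp110 was at 44.2 and 25.7 RPKM in FH-Prdm14 cells, at 1.66 and 1.90 RPKM in Prdm14-/- cells and at 1.21 and 1.36 RPKM in E294K cells. It was at 0.991 RPKM in wt serum+LIF, 1.19 and 0.555 RPKM in wt 2i+LIF, 0.935, 1.21 and 0.314 RPKM in Mtgr1-/- and 1.62, 0.694 and 0.638 RPKM in FH-Mtgr1. The Prdm14-/- libraries were the highest of the 13 others, just above FH-Mtgr1 clone A3.

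Dux, the transcription factor among the members, was at 24.1 and 11.7 RPKM in FH-Prdm14 cells, at 0.979 and 0.885 RPKM in Prdm14-/- cells and at 0.496 and 0.752 RPKM in E294K cells. It was at 1.09 RPKM in wt serum+LIF, 0.509 and 0.309 RPKM in wt 2i+LIF, 0.503, 0.765 and 0.0872 RPKM in Mtgr1-/- and 2.33, 1.33 and 0.815 RPKM in FH-Mtgr1. Unlike the other members, its next highest libraries were FH-Mtgr1 clones A3 and C1, and all 3 FH-Mtgr1 libraries were above all 3 Mtgr1-/- libraries. The lowest value, in Mtgr1-/- clone C3, rests on 2 reads.

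Tmem92 was at 22.2 and 12.1 RPKM in FH-Prdm14 cells, at 1.04 and 1.13 RPKM in Prdm14-/- cells and at 0.835 and 0.833 RPKM in E294K cells. It was at 0.295 RPKM in wt serum+LIF, 0.623 and 0.549 RPKM in wt 2i+LIF, 0.644, 0.951 and 0.138 RPKM in Mtgr1-/- and 0.595, 0.663 and 0.246 RPKM in FH-Mtgr1. The Prdm14-/- pair was again the highest of the 13 others.

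Usp17lc was at 18.6 and 11.8 RPKM in FH-Prdm14 cells, at 1.37 and 1.33 RPKM in Prdm14-/- cells and at 0.185 and 0.323 RPKM in E294K cells. It was at 0.854 RPKM in wt serum+LIF, 0.221 and 0.0920 RPKM in wt 2i+LIF, 1.20, 1.30 and 0.208 RPKM in Mtgr1-/- and 0.513, 0.555 and 0.370 RPKM in FH-Mtgr1. The E294K libraries held only 5 and 9 reads of this gene and were below both Prdm14-/- libraries, which held 27 and 29 reads, and below the wt serum+LIF library.

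**Figure D1:**
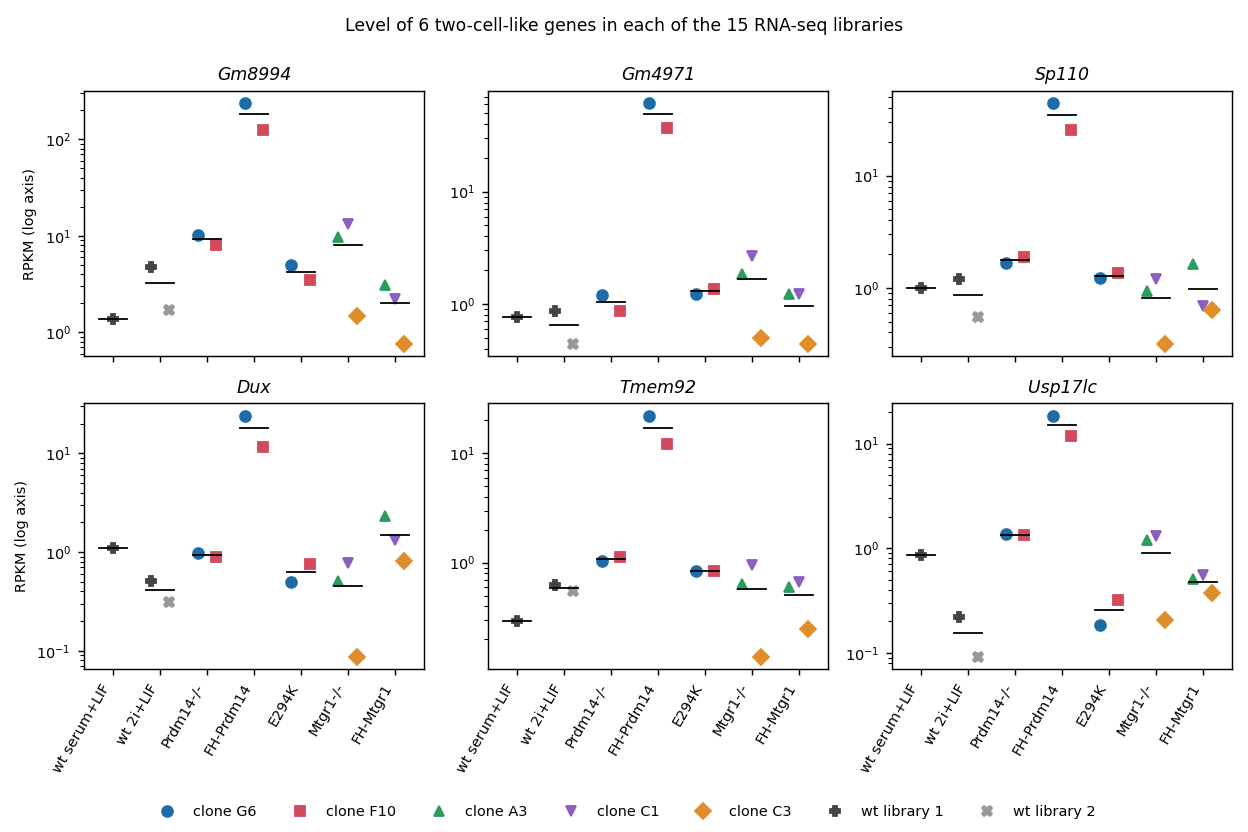
Level of each of the 6 measured members in all 15 libraries, as RPKM on a log axis, with 1 point per library, marked by clone and grouped by condition, and a bar at the mean of the condition. The 2 FH-Prdm14 libraries lie above the 13 others for every member.

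Tcstv1 and Tcstv3 had 0 reads in all 15 libraries. In the FH-Prdm14 libraries a count of 0, taken to allow up to 3 reads, allows a level of up to 0.270 RPKM (G6) and 0.240 RPKM (F10) for Tcstv1 and of up to 0.266 and 0.236 RPKM for Tcstv3. This limit covers counting error only. Of the 44 genes of another two-cell-stage list that are in the tables, 13 were also listed at 0 in every library, so such a 0 was common among these genes and does not show that the RNA was absent.

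For all 6 measured members both FH-Prdm14 libraries were above the 13 others, which was true of 8.26% of the 13477 genes tested. Mean levels in FH-Prdm14 cells were 182 ± 78.4 RPKM for Gm8994, 48.9 ± 17.5 RPKM for Gm4971, 35.0 ± 13.1 RPKM for Sp110, 17.9 ± 8.78 RPKM for Dux, 17.1 ± 7.16 RPKM for Tmem92 and 15.2 ± 4.81 RPKM for Usp17lc (SD, n = 2). Gm8994 was above the other members in both clones. Gm4971 was above Sp110 in G6 (61.3 against 44.2 RPKM) and in F10 (36.5 against 25.7 RPKM), though their ranges over the clones overlapped. The ranges of Dux, Tmem92 and Usp17lc overlapped as well, and their order differed between the clones. These libraries hold the RNA of whole cultures, so more cells in the state and more RNA per cell cannot be told apart.

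Against E294K cells, the log2 difference in log2(RPKM + 0.5) was 5.21 (SE 0.77) for Gm8994, 4.73 (SE 0.47) for Gm4971, 4.35 (SE 0.38) for Usp17lc, 4.26 (SE 0.40) for Sp110, 3.95 (SE 0.42) for Dux and 3.66 (SE 0.37) for Tmem92. The added 0.5 makes these smaller than the ratios of the RPKM. As the choice of members fixed, 6 of 6 were past the threshold of the fit, against 13.2% of all genes. Against Prdm14-/- cells the differences ran from 3.05 (SE 0.38, Usp17lc) to 4.97 (SE 0.47, Gm4971), with 6 of 6 past the threshold against 13.8% of all genes. Against FH-Mtgr1 cells, which have wild-type Prdm14 at its serum level, they ran from 3.19 (SE 0.38, Dux) to 6.24 (SE 0.71, Gm8994), with 6 of 6 past the threshold against 26.2% of all genes. These counts are no test and nothing is read from them, since the members were selected on these libraries. The 3 comparisons share the FH-Prdm14 libraries. In the last of them the median over all genes was 0.11 and moved to 0.00 with median-of-ratios scaling, small beside the members' differences.

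Within each clone, where FH-Prdm14 and E294K lines derive from the same Prdm14-/- line, FH-Prdm14 over E294K ratios of the RPKM were 26.6 to 100 in clone G6 (median 48.2) and 14.5 to 36.5 in clone F10 (median 22.8). The ratio of Prdm14 RNA was 1.11 in G6 and 0.888 in F10. Each of these ratios compares 1 library with 1 library. FH-Prdm14 over Prdm14-/- ratios were 13.5 to 50.8 in G6 (median 23.8) and 8.85 to 41.9 in F10 (median 13.4).

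The 2 clones differed under FH-Prdm14. There the G6 over F10 ratio was 1.58 to 2.06 and above 1 for 6 of 6 members, while 52.7% of all genes had a ratio above 1. The ratio of Prdm14 in the same libraries was 1.46. In E294K cells the members' ratio was 0.573 to 1.41 and above 1 for 2 of 6, with a Prdm14 ratio of 1.17. In Prdm14-/- cells it was 0.876 to 1.38 and above 1 for 4 of 6, with a Prdm14 ratio of 0.544. With 1 library of each clone in each condition, a different effect of the clone under FH-Prdm14 could not be tested.

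**Figure D2:**
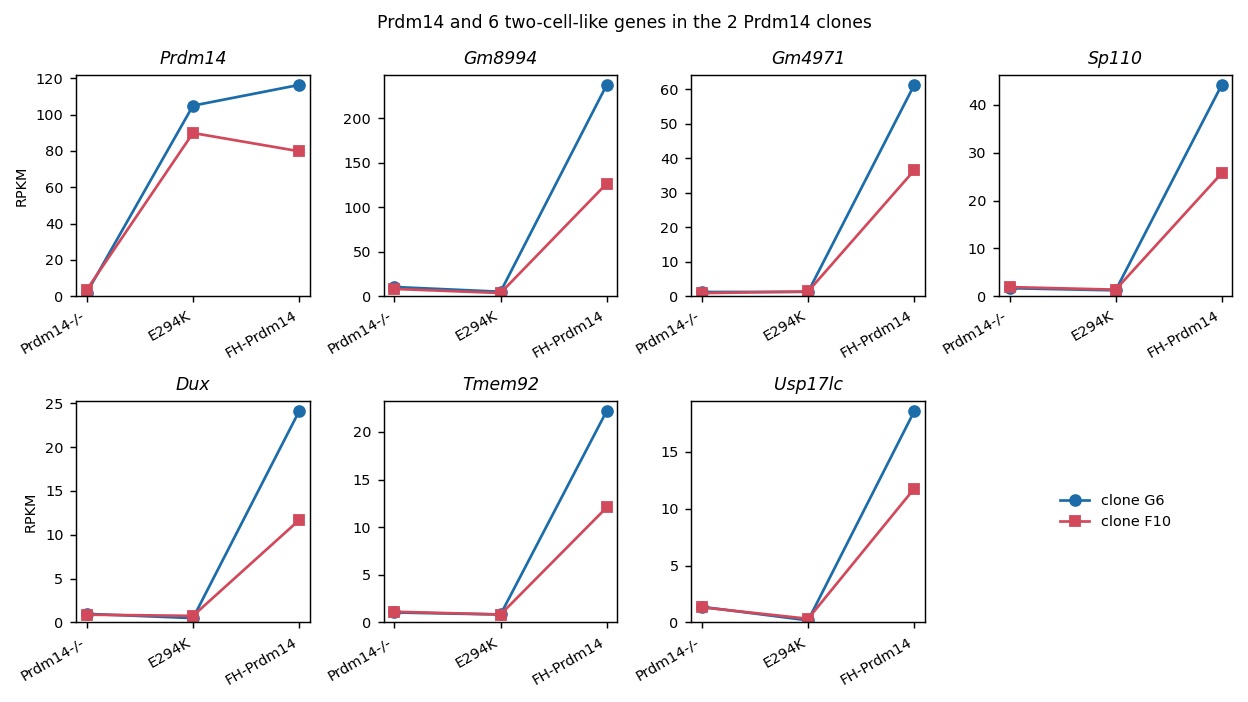
RPKM of Prdm14 and the 6 measured members in the Prdm14-/-, E294K and FH-Prdm14 lines, on linear axes from 0, with 1 point per library and a line joining the libraries of each clone (G6, F10). Prdm14 is about as high in E294K as in FH-Prdm14 cells, the members are high under FH-Prdm14, and each of them is higher there in G6 than in F10.

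A limma fit over these 6 libraries with a term for the clone and one for the condition put all 6 members lower in F10 than in G6, by 0.13 (Usp17lc) to 0.56 (Gm8994) on the log2 scale. None was called (adjusted p = 0.533 for Gm8994, 0.665 for Dux, limma with Benjamini-Hochberg adjustment), in a comparison with 0% of genes called, 1072 of 13477 genes at an unadjusted p under 0.05, and also 0 called by voom on the reads. The median was -0.26 for the members and 0.01 for all genes. For 4 of the 6 the direction rested on the FH-Prdm14 lines: without either of their libraries the difference became 0.12 for Usp17lc, 0.04 for Tmem92, 0.13 for Sp110 and 0.12 for Dux, that is, higher in F10. Gm8994 and Gm4971 stayed lower in F10 without them, at -0.38 and -0.10.

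The comparisons that follow do not use the FH-Prdm14 values on which the members were chosen, other than in the common estimate of spread. The question of E294K against Prdm14-/- is whether a large amount of Prdm14 RNA with the exchange changes these genes. Usp17lc was lower in E294K cells, with 0.254 ± 0.0975 RPKM against 1.35 ± 0.0289 RPKM (SD, n = 2 each) and a log2 difference of -1.30 (SE 0.38, adjusted p = 0.0216, limma with Benjamini-Hochberg adjustment). The other 5 were not called, at -1.04 (SE 0.77, adjusted p = 0.312) for Gm8994, -0.36 (SE 0.42, adjusted p = 0.533) for Dux, -0.35 (SE 0.40, adjusted p = 0.514) for Sp110, -0.25 (SE 0.37, adjusted p = 0.626) for Tmem92 and 0.23 (SE 0.47, adjusted p = 0.735) for Gm4971, from the same limma fit. One member of 6 was called, and 32.9% of all genes were. The median was -0.35 for the members and 0.00 for all genes. Cell type markers moved in the same comparison. Of those tested, 5 of 10 pluripotency genes were higher in E294K cells, and 2 of 5 trophoblast, 2 of 4 fibroblast and 1 of 7 primitive endoderm genes were lower. The summed levels in E294K and Prdm14-/- cells were 4040 to 4420 and 3257 to 4126 RPKM for pluripotency genes, 23.8 to 26.3 and 42.0 to 48.3 RPKM for trophoblast genes, 13.7 to 14.3 and 17.1 to 22.8 RPKM for fibroblast genes, and 39.2 to 53.7 and 47.4 to 79.9 RPKM for primitive endoderm genes. Their part in the value of Usp17lc was not tested. The call for Usp17lc was lost without any 1 of the 4 libraries, with a log2 difference between -1.43 and -1.17 and an adjusted p between 0.0626 and 0.121 (limma), whereas Gm8994 was called lower, at an adjusted p of 0.0213 (limma), when only these conditions entered the fit.

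Against wt serum+LIF cells the Prdm14-/- lines showed no member past the threshold. The log2 differences were 2.37 (SE 0.95, adjusted p = 0.0809) for Gm8994, 0.99 (SE 0.45, adjusted p = 0.117) for Tmem92, 0.61 (SE 0.49, adjusted p = 0.361) for Sp110, 0.45 (SE 0.46, adjusted p = 0.483) for Usp17lc, 0.28 (SE 0.58, adjusted p = 0.746) for Gm4971 and -0.15 (SE 0.51, adjusted p = 0.849) for Dux (limma with Benjamini-Hochberg adjustment). At an unadjusted p under 0.05 Gm8994 and Tmem92 would pass, and voom called none of the 6 either. Of all genes, 25.4% were called. The wt condition has 1 library, so its spread is taken from the other conditions. With the clone as a block, Gm8994 was called higher in Prdm14-/- cells (adjusted p = 0.0232, limma), as it was when only these conditions were fitted.

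**Figure D3:**
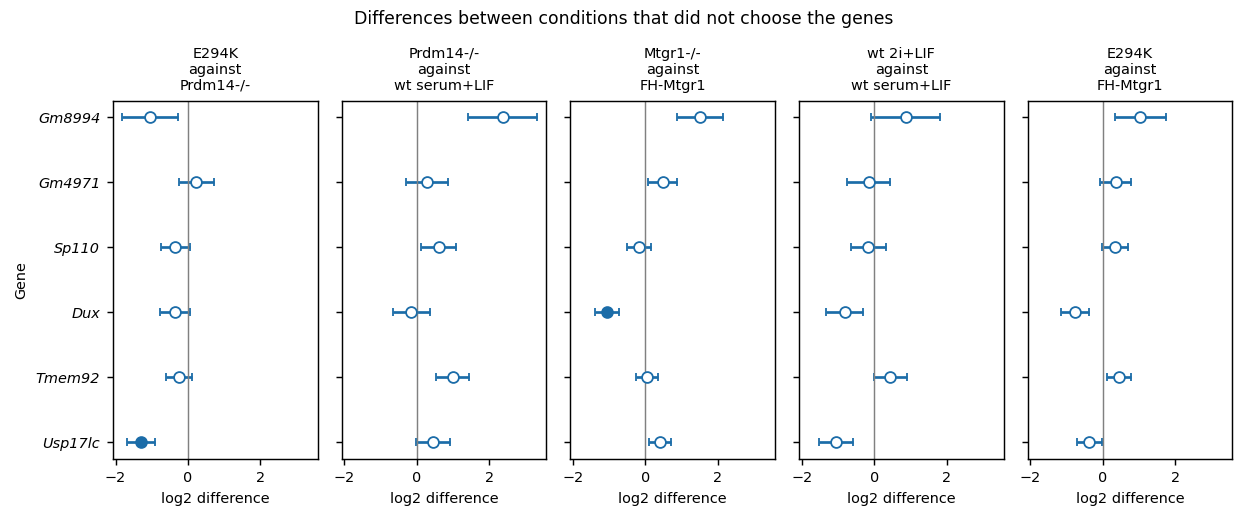
Differences in log2(RPKM + 0.5) of the 6 measured members in the 5 tested comparisons, with bars of 1 standard error from the limma fit over 15 libraries and filled points for those past an adjusted p of 0.05. The filled points are Usp17lc in E294K against Prdm14-/- (-1.30) and Dux in Mtgr1-/- against FH-Mtgr1 (-1.06).

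In Mtgr1-/- against FH-Mtgr1 cells, which asks for the effect of Mtgr1 at the low serum level of Prdm14, Dux was lower in the knockout. Its levels were 0.452 ± 0.342 RPKM and 1.49 ± 0.769 RPKM (SD, n = 3 each), a log2 difference of -1.06 (SE 0.34, adjusted p = 0.0205, limma with Benjamini-Hochberg adjustment). It was lower in all 3 clones. Gm8994 was higher in all 3 knockout clones, by 3.13, 6.03 and 1.95 times (A3, C1, C3), with a log2 difference of 1.50 (SE 0.63, adjusted p = 0.0626 from limma). With the clone as a block this passed (adjusted p = 0.00934, limma). Gm4971 was 1.52, 2.18 and 1.12 times as high, a log2 difference of 0.47 (SE 0.39, adjusted p = 0.324 from limma). Its C3 ratio rests on 6 reads in each library, so its direction there is uncertain.

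For the other members the ratios of the 3 clones were not all on the same side of 1. In C3 both Usp17lc and Tmem92 had 4 reads in the knockout and 8 in the rescue, so their direction there is uncertain. Usp17lc was 2.34 and 2.35 times as high in the knockout in A3 and C1 and 0.562 times in C3 (log2 difference 0.41, SE 0.31, adjusted p = 0.285, limma). The Tmem92 ratios were 1.08, 1.43 and 0.562 (log2 difference 0.05, SE 0.30, adjusted p = 0.895, limma), and those of Sp110 were 0.577, 1.74 and 0.492 (log2 difference -0.18, SE 0.32, adjusted p = 0.671, limma). One member of 6 was called against 52.3% of all genes. The median was 0.23 for the members and -0.01 for all genes. Trophoblast markers were also higher in Mtgr1-/- cells (summed 91.8 to 99.5 RPKM, against 22.0 to 30.0 RPKM in FH-Mtgr1, with 4 of 5 tested genes called, namely Ascl2, Hand1, Plac1 and Tfap2c), and pluripotency genes were lower (summed 1891 to 2169 RPKM against 3024 to 3839 RPKM, with 4 of 10 called lower and 1 higher). Of the other markers tested, 1 primitive endoderm gene was higher and 3 of 7 were lower, and 2 of 4 fibroblast genes were called in each direction. The part of these markers in the members' values was not tested.

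Clone C3 had the lowest value of its condition for 6 of 6 members in both Mtgr1-/- and FH-Mtgr1. The summed RPKM of the members was 2.70 in Mtgr1-/- C3, the lowest of all 15 libraries, against 14.8 in A3 and 20.1 in C1, and it was 3.26 in FH-Mtgr1 C3 against 9.36 and 6.66. Without the Mtgr1-/- C3 library, Gm8994 (2.36, adjusted p = 0.0016), Gm4971 (0.96, adjusted p = 0.0254) and Usp17lc (0.84, adjusted p = 0.00693) were called higher in Mtgr1-/- cells and Dux (-0.75, adjusted p = 0.0881) was no longer called (limma). Without FH-Mtgr1 clone A3 the call for Dux was also lost (-0.77, adjusted p = 0.0938, limma).

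**Figure D4:**
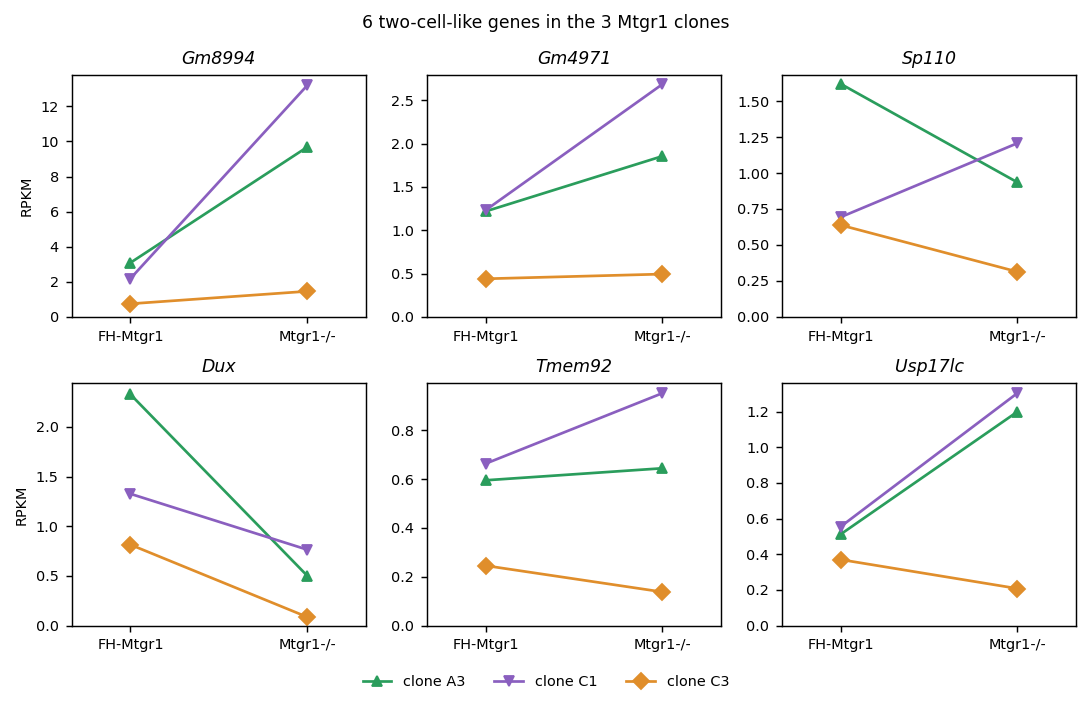
RPKM of the 6 measured members in the FH-Mtgr1 and Mtgr1-/- libraries, on linear axes from 0, with 1 point per library and a line joining the libraries of each clone (A3, C1, C3). Gm8994 and Gm4971 are higher and Dux is lower in the knockout in all 3 clones, and C3 is the lowest clone throughout. The C3 points of Gm4971 rest on 6 reads each.

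Wt cells in 2i+LIF, which have more Prdm14 RNA than in serum (log2 difference 2.92, SE 0.46, adjusted p = 0.00127, limma with Benjamini-Hochberg adjustment), showed no member past the threshold, against 22.9% of all genes called. The log2 differences from serum+LIF were -1.05 (SE 0.46, adjusted p = 0.120) for Usp17lc, -0.81 (SE 0.51, adjusted p = 0.272) for Dux, 0.87 (SE 0.95, adjusted p = 0.537) for Gm8994 and between -0.16 and 0.45 for the other 3, from the same limma fit. At an unadjusted p under 0.05 Usp17lc alone would pass, and voom called none. The medium changes along with Prdm14 here, so the effects of both cannot be told apart.

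The E294K lines were also set against FH-Mtgr1 lines, which have far less Prdm14 RNA and none of the exchange (log2 difference of Prdm14 5.15, SE 0.34). None of the 6 members was called, against 26.1% of all genes. Gm8994 differed by 1.03 (SE 0.71, adjusted p = 0.302), Dux by -0.76 (SE 0.38, adjusted p = 0.163) and the other 4 by -0.38 to 0.44 (limma with Benjamini-Hochberg adjustment). At an unadjusted p under 0.05 none of the 6 would pass, and voom called none. The median was 0.34 for the members and 0.03 for all genes.

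Outside the FH-Prdm14 lines the members were correlated less tightly, and Dux followed some of them only weakly. Over the 13 other libraries, the 15 pairs of members had Pearson's r of 0.07 to 0.82 in log2(RPKM + 0.5), with a median of 0.57. For Dux, r was 0.07 with Gm8994, 0.30 with Tmem92, 0.31 with Gm4971, 0.41 with Usp17lc and 0.59 with Sp110. These values share libraries, clones and depth and are given as a description. Clone C3, the lowest of its condition for 6 of 6 members in both Mtgr1 conditions, is among the libraries. No r for other pairs of genes is given beside them, so these r are not read as particular to the members. With Prdm14 over the same 13 libraries, r was -0.53 to 0.33 (median 0.09). Over all 15 libraries, the pairs of members had r of 0.83 to 0.99, which the FH-Prdm14 libraries set.

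The genes whose pattern was most like the mean of the 6 measured members over the 15 libraries, by Pearson's r, were Pramef25 (0.99), Cml2 (0.99), Usp17ld (0.99), D17Ertd648e (0.99), Spz1 (0.98), Lmx1a (0.98), Gm5662 (0.98), Fgf1 (0.98), Gm1995 (0.98) and AU019990 (0.98). The FH-Prdm14 libraries set this likeness. D17Ertd648e, which carries the 45-base run of the Gm8994 and Sp110 promoters, was by far the most abundant of the 10, with 3.28 to 17.1 RPKM in the 13 other libraries. The remaining 9 reached 1.19 to 11.2 RPKM in the FH-Prdm14 libraries and no more than 0.719 RPKM elsewhere, so they passed the filter only through those libraries.

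Other genes of the programme were read from lists. Of the Zscan4 family, 6 genes are in the tables, led by Zscan4a, Zscan4f and Zscan4c. Their summed level was 48.5 and 83.2 RPKM in the FH-Prdm14 libraries and 0.796 to 9.36 RPKM in the others, and 0 of 6 were called by limma in any of the 5 tested comparisons, against 22.9% to 52.3% of all genes. One of the 6 passed the filter only through the FH-Prdm14 libraries, and the low levels of the family outside them limit what could be called. The list of other two-cell-stage genes summed to 257 and 416 RPKM in the FH-Prdm14 libraries and 40.5 to 105 RPKM elsewhere, of which AU018091 alone gave 24.2 to 58.3 RPKM. Of its 27 tested genes, 14 passed the filter only through the FH-Prdm14 libraries, so their counts there are not given.

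In the 5 tested comparisons, where 22.9% to 52.3% of all genes were called, those of the 27 that were called are named here. The 14 that passed the filter only through FH-Prdm14 lie low in the compared libraries, so the number called is not read. Calcoco2, which encodes a receptor in selective autophagy, rose (log2 difference 2.35, adjusted p = 0.000914) and Ddit4l, a relative of the mTOR inhibitor Ddit4, fell (-1.44, adjusted p = 0.00275) in E294K against Prdm14-/- cells (limma). Both were also called in the same directions in wt 2i+LIF against serum+LIF cells and in E294K against FH-Mtgr1 cells, where AU018091 was called higher too. In Mtgr1-/- cells Ddit4l (-1.18, adjusted p = 0.000851) and Usp26 (-1.33, adjusted p = 0.0178) were lower (limma). None was called in Prdm14-/- against wt serum+LIF cells.

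Of the 4 listed activators, Dppa2, a chromatin factor known to act upstream of Dux, was higher in E294K against Prdm14-/- cells (log2 difference 1.32, adjusted p = 0.0397), in Mtgr1-/- against FH-Mtgr1 cells (0.95, adjusted p = 0.0439) and in E294K against FH-Mtgr1 cells (1.36, adjusted p = 0.0291, limma). Its partner Dppa4 was lower in Mtgr1-/- cells (-0.41, adjusted p = 0.042) and in wt 2i+LIF cells (-1.63, adjusted p = 0.000709, limma). In the E294K lines Dppa2 was at 38.9 to 41.7 RPKM and in the FH-Prdm14 lines at 36.7 to 48.8 RPKM. Whether Dppa2 has a part in the members' values was not tested. Nelfa, another known activator, was at 131 and 90.5 RPKM in the FH-Prdm14 libraries and at 29.5 to 49.3 RPKM in the 13 others. Dppa3, the gene behind the reporter, was at 50.3 and 50.6 RPKM in the FH-Prdm14 libraries, at 18.9 and 21.2 RPKM in the E294K libraries and at no more than 39.4 RPKM in any of the 13 others, and was called in none of the 5 tested comparisons.

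Among 22 known repressors of the state, led in level by Trim28, Sumo2 and Ncl, 12 were higher and 0 lower in E294K against Prdm14-/- cells, where the median was 0.45. In the other comparisons the counts were 0 higher and 7 lower in Prdm14-/- against wt serum+LIF cells, 10 and 3 in Mtgr1-/- against FH-Mtgr1 cells, 0 and 6 in wt 2i+LIF against serum+LIF cells and 10 and 0 in E294K against FH-Mtgr1 cells. Their summed level was 2558 to 2574 RPKM in the E294K lines and 2033 to 2099 RPKM in the FH-Prdm14 lines. It was 1724 to 1801 RPKM in Prdm14-/-, 1725 to 1920 RPKM in wt 2i+LIF and 1815 to 1932 RPKM in FH-Mtgr1 cells. In wt serum+LIF cells it was 2264 RPKM, and in Mtgr1-/- cells 2151 to 2397 RPKM. The FH-Prdm14 sums thus lay within the range of the other conditions, though sums mostly reflect the most abundant genes. In E294K against Prdm14-/- cells 2039 of the 13477 genes tested were called higher and 2396 lower. In either direction, 32.9%, 25.4%, 52.3%, 22.9% and 26.1% of all genes were called in these tested comparisons, in the order given. The counts of repressors are to be read beside these shares. In FH-Prdm14 against E294K cells 0 repressors were higher and 4 lower (Ehmt1, Ehmt2, Hdac1 and Ncl), beside 1777 and 856 of all genes. Against Prdm14-/- cells the counts were 1 and 2, beside 1859 and 1531. Against FH-Mtgr1 cells they were 5 and 4, beside 3531 and 2069. Ehmt1 was lower in each of them. Any part of these genes in the members' values was not tested.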

How the data were processed

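RNA-seq was carried out on poly(A)-selected RNA of mESC lines, with single-end reads of 51 or 76 bases. Which libraries had which read length was not given in the sources used here. The authors used Tophat with mm9 for alignment, HTSeq with RefSeq genes for counting and DESeq2 for their tests (the submitters' processing notes also name GRCm38). The values they deposited are RPKM, 1 per gene and library, with the gene length. RPKM multiplied by length came to whole reads in 100.0% of cases (within 0.01 reads), from which the depth of 10668572 to 21218414 reads was computed. A count of 0 was taken to allow 3 reads. The 11 ChIP-seq samples were not used here.

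Groups and clones were taken from the labels. Genes at 1 RPKM or above in 2 or more libraries were kept (13477), and their log2(RPKM + 0.5) was fitted with 1 mean per condition over the 15 libraries in limma 3.58.1 (R 4.3.3, eBayes with trend), with Benjamini-Hochberg adjustment over all genes and a threshold of 0.05. The clone comparison used 6 libraries with condition as a term. The fit over 15 libraries was tested on simulated counts in which a known set of genes was changed in the E294K libraries. The simulated libraries otherwise shared the same mean for each gene and had no differences between clones, unlike the real libraries. The simulation therefore does not show how the fit does at the real spread. Libraries of a condition differed beyond the sampling noise of their reads (chi-square per gene 3.26 to 64.4), so none was counted as a duplicate. Exon windows of 51 and 76 bases from GENCODE models were matched to NCBIM37, and promoter sequences and motifs were taken from RefSeq, with Python 3.11.15.

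The members and gene lists were chosen with earlier results of these data known, and no p-value is adjusted over a list alone. Named genes are the members, Prdm14 and Cbfa2t2, the 3 genes of highest mean RPKM in each list, those called where 4 or fewer are called, and the 10 genes with the pattern most like the members. Genes with the 45-base run were named after their values were seen. Lines of the same clone are paired by the labels, since they derive from 1 clonal line. Deviations of paired libraries from their condition means correlated across genes with r of 0.04 to 0.30 between the Prdm14 conditions and of 0.06 (A3), -0.18 (C1) and 0.03 (C3) between the Mtgr1 conditions. Alternatives were the clone as a block, pseudocounts of 0.1 and 1, no filter on low values, median-of-ratios scaling, voom on the reads, only the compared conditions in the fit, and leaving out each library.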

Additional observations from a re-analysis of the deposited data

Results flagged for a closer look

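The knockout and rescue comparison went opposite ways in the 2 clone families for a pair of members. Gm8994 was lower in the knockout than in the rescue in both Prdm14 clones (mean log2 difference -4.17) and higher in the knockout in all 3 Mtgr1 clones (1.50), a gap of 5.67 on the log2 scale. Gm4971 was also lower in both Prdm14 clones (-4.97) and higher in all 3 Mtgr1 clones (0.47), a gap of 5.44. In clone C3 its values rest on 6 reads in the knockout and 6 in the rescue, so its direction there is uncertain. The difference between the clone families was not tested, and its Prdm14 side rests on the FH-Prdm14 libraries on which the members were chosen. The rescues also differ in Prdm14 RNA, at 79.8 to 116 RPKM in FH-Prdm14 and 2.03 to 2.52 RPKM in FH-Mtgr1, and the part of this was not tested.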

How the results depend on the processing

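Across the alternatives, 192 of the log2 differences of members with 1 library left out, and 336 of those under other settings, kept their direction and side of the threshold (for the untested FH-Prdm14 comparisons, moved by less than the residual SD of the gene). With 1 library left out 15 changed sign, 6 lost and 3 gained a call, and 12 of the FH-Prdm14 comparisons moved by more than that SD, all of them without an FH-Prdm14 library. Under the other settings none changed sign, 4 gained a call and 26 of the FH-Prdm14 comparisons moved by more, with another pseudocount or voom. The number of members called in E294K against Prdm14-/- was 1, became 2 with only the compared conditions, and was 0 with any 1 of the 4 libraries left out. In Prdm14-/- against wt serum+LIF it was 0, and became 1 with only the compared conditions. In Mtgr1-/- against FH-Mtgr1 it was 1, and lay between 0 and 3 with each library left out. Differences that changed sign without 1 library had these ranges over the libraries left out: in Mtgr1-/- against FH-Mtgr1, Tmem92 -0.20 to 0.39 and Sp110 -0.40 to 0.14; in wt 2i+LIF against serum+LIF, Gm4971 -0.43 to 0.12 and Sp110 -0.50 to 0.18; and in F10 against G6, Usp17lc -0.33 to 0.12, Tmem92 -0.43 to 0.036, Sp110 -0.32 to 0.13 and Dux -0.55 to 0.12. Median-of-ratios scaling moved the genes called higher and lower from 3531 and 2069 to 2924 and 2632 in FH-Prdm14 against FH-Mtgr1, and from 1251 and 1833 to 1645 and 1434 in wt 2i+LIF against serum+LIF. With only the compared conditions, the genes called higher and lower went from 1576 and 1847 to 412 and 213 in Prdm14-/- against wt serum+LIF, from 1251 and 1833 to 0 and 0 in wt 2i+LIF against serum+LIF, and from 1777 and 856 to 4211 and 3003 in FH-Prdm14 against E294K. With a library left out they fell to as few as 520 and 995 (from 2039 and 2396) in E294K against Prdm14-/-, 530 and 396 in Prdm14-/- against wt serum+LIF, 592 and 432 (from 1976 and 1541) in E294K against FH-Mtgr1, 663 and 206 in FH-Prdm14 against E294K, 894 and 785 (from 1859 and 1531) in FH-Prdm14 against Prdm14-/- and 1917 and 927 in FH-Prdm14 against FH-Mtgr1. Below 1 RPKM, where Usp17lc, Tmem92 and Dux mostly lay outside FH-Prdm14, a value rests on few reads. This limits the comparisons between the other conditions. Of the libraries outside FH-Prdm14, Gm8994 reached 1 RPKM in 12, and Gm4971 and Sp110 each did so in 7.

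With the clone as a replicate block, the number of members called became 1 in Prdm14-/- against wt serum+LIF (Gm8994) and 2 in Mtgr1-/- against FH-Mtgr1 (Gm8994 and Dux). The block changed no other call of a member.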
